A study of Macaca fascicularis with 6 samples.

Results

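The 10 genes described here encode the contents of cytotoxic granules (GZMA, GZMB, GZMK, GNLY, PRF1 and NKG7) and lectin-like receptors of killer cells (KLRD1, KLRC1, KLRB1 and KLRG1). They were chosen by name, as the rows of the count tables whose symbol is one of these, and all 10 were found, each on a single row, among the 28623 genes listed. Their counts were followed across the cell types of the monkey lung and between monkeys with and without asthma.

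Lung cells of 6 male cynomolgus monkeys (Macaca fascicularis) aged 3 to 5 years were profiled by droplet-based 3′ single-cell RNA sequencing, with 1 library per monkey. The 3 monkeys of the asthma group (replicates 8, 10 and 11) were sensitized under the skin with antigen of the roundworm Ascaris suum at 1 mg/mL, mixed with adjuvant, and challenged with it through the nose at 10 mg/mL, and the 3 control monkeys (replicates 1, 2 and 3), labelled normal, were given saline instead. Lungs were taken in week 11, and the tissue was dissociated with enzymes and depleted of dead cells, so that only cells that survived this handling were counted. Libraries held 40556102, 33210436 and 32240293 unique molecular identifiers (UMIs, counted once per captured RNA molecule) in the controls and 41184329, 41489879 and 29014556 in asthma replicates, over 5389, 5513, 5731, 6268, 6964 and 5268 barcodes. After filtering, 24235 cells with library medians from 3835 to 5048.5 UMIs remained, and they held 721737 UMIs of the 10 genes, from 53666 in asthma replicate 11 to 153291 in asthma replicate 10.

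Natural killer (NK) cells and cytotoxic T cells kill by releasing granules onto a target cell. Perforin, the product of PRF1, makes pores through which granzymes, a family of serine proteases, enter the target, where granzyme B (GZMB) starts apoptosis. Whether granules are released is set by the balance of activating and inhibitory receptors, among them the lectin-like receptors whose genes lie together in the NK gene complex. In the lung such cells guard against infection, and in allergic airway disease they are found beside the type 2 T cells, eosinophils and mast cells that mark it.

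Cells were clustered without these 10 genes and 29 further genes that go with them, and clusters were named from markers, with the ending -like. T and NK-like cells numbered 10098 and fell into 8 groups. NK-like cells (2729) carried FCER1G at 1454 UMIs per 1000000 UMIs of the group (CPM) and TYROBP at 3912 CPM, both signalling adaptors of NK cells, with the T cell receptor chain TRAC at 57.6 CPM. Of the CD3 chains of T cells they carried CD3D at 219.8 CPM, CD3E at 64.0 CPM and CD3G at 339 CPM, the last in 46.5% of cells. CD8 T-like cells (2602) carried TRAC at 769 CPM and CD3D at 1757 CPM and CD3G at 1034 CPM, with FCER1G at 33.9 CPM. CD8A did not separate them, at 380 CPM in NK-like and 411 CPM in CD8 T-like cells, and the human NK marker NCAM1 was close to absent from NK-like cells, at 1.48 CPM. The other groups were CD4 T-like cells (1418), Treg-like cells (138), proliferating-like cells (540) and 3 groups that no marker list named, called by their leading genes ITM2C (1188 cells), IGFBP2 (752 cells) and IFI27 (731 cells). Cells of the IFI27 group carried the T cell chain CD3D at 1716 CPM together with TYROBP at 2173 CPM. FCER1G was at 174 CPM there, in 22.4% of cells against 91.6% of NK-like cells.

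Of all UMIs of the 10 genes, 90.2% lay in T and NK-like cells. The share was between 88.9% (GZMB) and 92.8% (GZMA) for 9 genes and was 73.5% for KLRG1. Together the 10 genes made up 3.28% ± 0.65 (SD, n = 6 libraries) of all UMIs in NK-like cells, 1.36% ± 0.37 in CD8 T-like cells and 0.173% ± 0.054 in CD4 T-like cells. In the 5 libraries with enough cells of the IFI27 group the share there was 2.17% ± 0.41. Levels per cell type are a description over 6 libraries and carry no test.

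**Figure D1:**
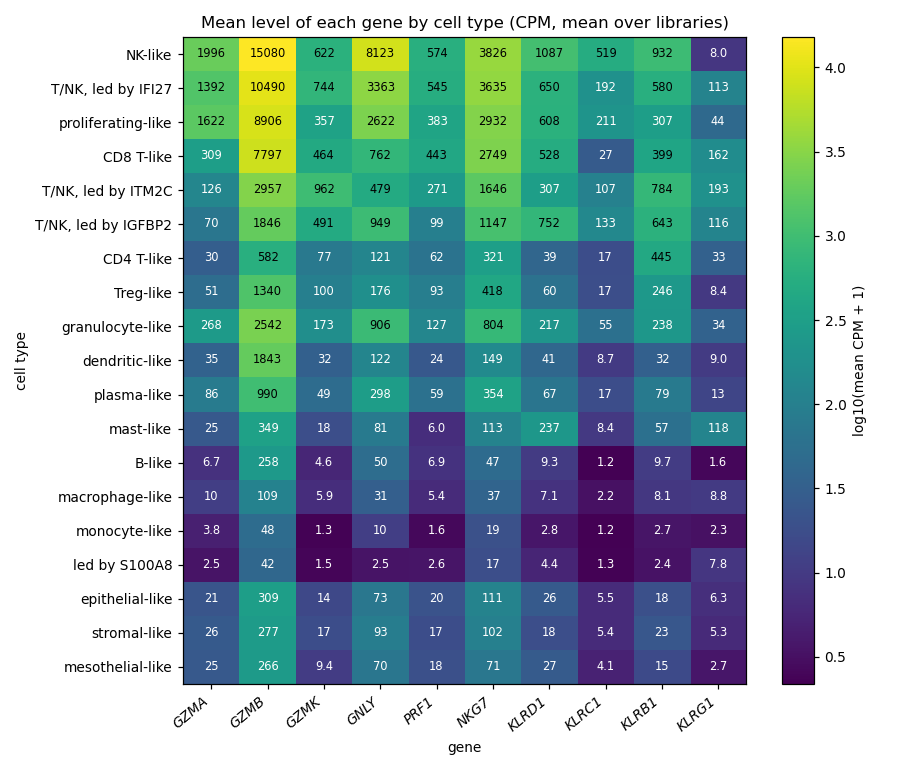
Mean level of each of the 10 genes (columns) in 19 cell types (rows), as UMIs per 1000000 UMIs of the type (CPM), averaged over the libraries with at least 10 cells of the type; the colour shows log10(mean CPM + 1). NK-like cells had the highest mean of 8 of the 10 genes, and GZMK and KLRG1 were highest in the T/NK group led by ITM2C.

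GZMA (ENSMFAG00000039153) encodes granzyme A, a trypsin-like protease. Its level in NK-like cells was 2434, 2012 and 2081 CPM in the controls and 1447, 2860 and 1140 CPM in asthma replicates, in the order given above. In CD8 T-like cells it was 171, 371 and 423 CPM in the controls and 355, 523 and 13.2 CPM in asthma replicates. NK-like cells were therefore higher in all 6 libraries, by 9.49 times in the geometric mean. The last value rests on 3 UMIs in the 89 CD8 T-like cells of asthma replicate 11, which also had the lowest GZMA level in NK-like cells. Without that library the NK-like to CD8 T-like ratio ran from 4.07 to 14.2. Proliferating-like cells (1622 CPM ± 748) and the IFI27 group (1392 CPM ± 419) overlapped the NK-like range, while CD8 T-like cells lay below the whole range of the IFI27 group.

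GZMB (ENSMFAG00000043077) encodes the granzyme that cuts caspases, and 352358 of its UMIs were counted. NK-like cells carried 13180, 13720 and 16190 CPM in the controls and 13210, 18440 and 15740 CPM in asthma replicates, a spread of 1.40 times. CD8 T-like cells carried 6144, 7428 and 9285 CPM in the controls and 9297, 10380 and 4244 CPM in asthma replicates. The geometric mean ratio of the cell types was 2.003 and every library had more in NK-like cells. The NK-like range did not overlap that of the next group, led by IFI27 (10490 CPM ± 2060), and the CD8 T-like range did not overlap that of the ITM2C group (2957 CPM ± 843). After each cell was thinned to 2000 UMIs, GZMB was found in 100% of NK-like and 99.4% of CD8 T-like cells, and in 19.2% of CD4 T-like cells (unthinned 99.8%, 98.9% and 24.8%). Such shares are pooled over the cells of all libraries unless a library is named.

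GZMK (ENSMFAG00000033984) encodes granzyme K, a protease of memory-type T cells and some NK cells, and had another order. It was highest in the ITM2C group, at 1435, 333 and 519 CPM in the controls and 1001, 1982 and 498 CPM in asthma replicates. NK-like cells carried 1000, 376 and 721 CPM in the controls and 620, 956 and 56.6 CPM in asthma replicates, and CD8 T-like cells carried 464 CPM ± 261. The IFI27 group averaged 744 CPM without asthma replicate 11 and was above NK-like cells in 2 of 5 libraries. All of these ranges overlapped. NK-like cells were above CD8 T-like cells in 5 of 6 libraries, by 1.12 times over the 6. The exception was asthma replicate 11, in which GZMK was found in 9.09% of thinned NK-like cells against 37.6% to 64.2% in the others.

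**Figure D2:**
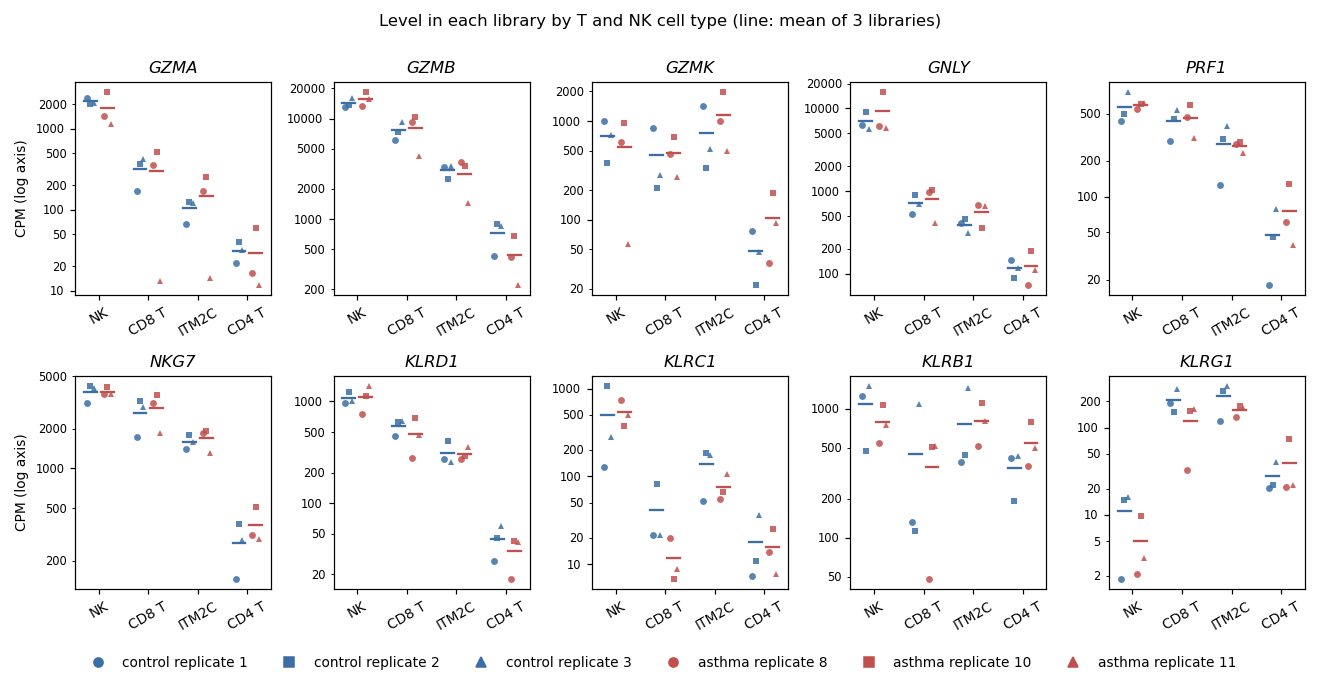
Level of each gene (panels, CPM on a log axis) in every library for NK-like cells, CD8 T-like cells, the T/NK group led by ITM2C and CD4 T-like cells; symbols are libraries, blue control and red asthma, and lines are the means of 3 libraries. Controls and asthma libraries overlap in all panels and cell types except KLRC1 in CD8 T-like cells, where the 3 asthma libraries (6.78 to 19.9 CPM) lie just below the 3 control libraries (21.4 to 82.2 CPM).

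GNLY (ENSMFAG00000004079) encodes granulysin, a pore-forming protein that also attacks microbes. NK-like cells carried 6351, 9021 and 5604 CPM in the controls and 6063, 15850 and 5853 CPM in asthma replicates, and CD8 T-like cells carried 535, 903 and 701 CPM and 979, 1043 and 414 CPM. The ratio was 10.4 in the geometric mean and at least 6.196 in each library. Of the genes that were higher in NK-like than in CD8 T-like cells, GNLY was therefore among those with the largest ratios, with GZMA and KLRC1. PRF1 (ENSMFAG00000033010), by contrast, ran from 433 to 761 CPM in NK-like cells and from 295 to 592 CPM in CD8 T-like cells, a ratio of 1.32 with overlapping ranges, although NK-like cells were higher in each library.

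NKG7 (ENSMFAG00000035342) encodes a granule membrane protein needed for granule release. Of the 10 genes it varied least between libraries in NK-like cells, at 3144, 4236 and 4118 CPM in the controls and 3664, 4130 and 3666 CPM in asthma replicates. In CD8 T-like cells it lay between 1741 and 3595 CPM, and in the IFI27 group it reached 3635 CPM ± 750. Thinned shares were 99.4% in NK-like cells, 99.0% in CD8 T-like cells, 85.4% in the ITM2C group and 22.7% in CD4 T-like cells. PRF1 and NKG7 were thus close to level between both killer types, whereas GZMA and GNLY were not.

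KLRD1 (ENSMFAG00000001286) encodes CD94, which pairs with the KLRC1 product NKG2A into an inhibitory receptor for HLA-E. NK-like cells carried 963, 1241 and 1020 CPM in the controls and 755, 1122 and 1421 CPM in asthma replicates, against 528 CPM ± 157 in CD8 T-like cells, a ratio of 2.11 that held in 6 of 6 libraries. KLRC1 (ENSMFAG00000039052) had a far larger ratio, 22.3, from 5.98 in control replicate 1 to 57.4 in asthma replicate 11. Its levels in NK-like cells differed between animals, with 128, 1072 and 284 CPM in the controls and 748, 375 and 506 CPM in asthma replicates, a spread of 8.38 times. Control replicate 2 was highest and control replicate 1 lowest, so the control animals spanned the whole range. KLRC2 and KLRC3, close relatives of KLRC1, were not analysed here, and reads of such relatives could have been counted as KLRC1 or lost, which makes its level uncertain.

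KLRB1 (ENSMFAG00000039925) encodes CD161, a receptor of NK cells and of interleukin-17-producing and innate-like T cells. It was the gene that CD4 T-like cells carried nearest to the killer cells, at 445 CPM ± 194 against 399 CPM ± 393 in CD8 T-like and 932 CPM ± 412 in NK-like cells. In CD8 T-like cells it was 133, 112 and 1087 CPM in the controls and 48.0, 500.4 and 516 CPM in asthma replicates, a spread of 22.6 times. In NK-like cells it was 1261, 473 and 1501 CPM in the controls and 538, 1065 and 753 CPM in asthma replicates. Control replicate 2 and asthma replicate 8 were the lowest pair in both cell types, and control replicate 3 was the highest in both, so that control animals alone spanned 112 to 1087 CPM in CD8 T-like cells.

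KLRG1 (ENSMFAG00000003591) encodes an inhibitory receptor for cadherins that marks antigen-experienced T cells. It was the only gene of the 10 that was lower in NK-like than in CD8 T-like cells, with 1.84 to 16.2 CPM against 32.3 to 275 CPM. The difference held in 6 of 6 libraries and came to 24.5 times, though the NK-like level rests on 2 to 33 UMIs per library. After thinning, KLRG1 was found in 1.06% of NK-like cells and in 20.1% of CD8 T-like and 24.7% of ITM2C-group cells (unthinned 2.05%, 26.6% and 33.4%). Its level in the ITM2C group was 118, 264 and 300 CPM in the controls and 133, 175 and 167 CPM in asthma replicates.

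Free RNA in the droplets can place these abundant transcripts in cells that do not make them. In epithelial-like cells, which should lack them, thinned shares were 9.29% for GZMB, 6.68% for NKG7, 5.43% for GNLY, 0.522% for KLRG1 and between 1.36% and 2.61% for the other 6 genes, at a median of 8204 UMIs per cell before thinning against 3746 in NK-like and 4010 in CD4 T-like cells. The share of NK-like cells with KLRG1 was near this background, and KLRC1 in CD4 T-like cells (2.58%) and GZMA in CD4 T-like cells (2.43%) lay close to theirs. Thinning left out 161 control and 108 asthma NK-like cells and 145 control and 205 asthma CD8 T-like cells that were shallower than 2000 UMIs.

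NK-like cells carried 4.85 of the 6 granule genes on average after thinning, the IFI27 group 4.78, CD8 T-like cells 3.87 and CD4 T-like cells 0.665, beside 0.283 in epithelial-like cells. At least 4 of the 6 were found in 89.6% of NK-like, 60.4% of CD8 T-like and 3.32% of CD4 T-like cells. In epithelial-like cells that share was 2.82%, close to the CD4 T-like share, but it differed between the other cell types. It was 0.92% in B-like, 1.11% in macrophage-like, 5.16% in dendritic-like and 12.1% in plasma-like cells. GZMA and GZMK were found in the same cell more often than their separate shares would give, 1.16 times in NK-like and 1.40 times in CD8 T-like cells, in 6 of 6 libraries for both. In CD4 T-like cells GZMA and GZMB shared 25 cells where 7.11 would be given, and GZMB and PRF1 shared 56 where 19.4 would be given, also in 6 of 6 libraries. Free RNA and doublets, which were kept, could also place these genes in the same cell. Their part in the CD4 T-like counts was not tested. KLRC1 and KLRG1 shared 16 CD8 T-like cells against 23.4, with 3 of 6 libraries above and 3 below, but in the ITM2C group they shared 54 against 38.8, above in 6 of 6. KLRB1 and KLRG1 also went together there, with 198 shared cells against 152. These ratios are descriptions of cells from 6 libraries, and cells of 1 library share their source.

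Across 110 sums of a library and cell type, log2(CPM + 10) of the granule genes had a Pearson's r between 0.76 (GZMA and GZMK) and 0.96 (PRF1 and NKG7). Within the 47 sums of T and NK-like groups GZMB and NKG7 had an r of 0.94, while GZMK had one of 0.44 with GZMA, 0.46 with PRF1, 0.49 with GNLY, 0.54 with GZMB and 0.64 with NKG7. KLRB1 had an r of 0.08 with GZMB there and KLRG1 one of 0.04. Within these groups GZMK, KLRB1 and KLRG1 thus had a lower r with GZMB than the other granule genes, which lay between 0.87 and 0.94. Sums of the same library share its depth and free RNA, and no p is given. Outside the 10, CCL5, a chemokine that killer cells secrete, was the most like-patterned gene over all sums for GZMB (r = 0.94), GNLY (0.93), NKG7 (0.97) and KLRD1 (0.95). CD8A was nearest to PRF1 (0.95) and IFNG, encoding interferon-γ, to GZMK (0.90). Within T and NK-like groups CMA1, encoding mast cell chymase, was nearest to GZMB (0.92), and TYROBP was nearest to GNLY (0.91) and KLRC1 (0.86). TRGC2, a T cell receptor γ chain gene, was nearest to KLRG1 over all sums (0.74), and the highest r for KLRB1 within T and NK-like groups was 0.57 (GSTM3).

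Outside T and NK-like cells, GZMB, KLRG1 and KLRD1 stood out from the rest in some cell types. In macrophage-like cells 9 genes were at 1.05% to 1.44% of their level in T and NK-like cells of the same library, and KLRG1 was at 17.4%. That mean rests on asthma replicate 8 (62.2%) and was 8.47% without it, a check chosen after seeing the data, as were those without single libraries that follow. KLRG1 was also apart in the cluster led by S100A8, at 17.4% (6.07% without asthma replicate 8, where it was at 73.8%), and in monocyte-like cells, at 3.61% (1.69% without that library). KLRG1 in T and NK-like cells, by which these percents are divided, was lowest in asthma replicate 8 (34.4 CPM) and control replicate 1 (34.8 CPM). In dendritic-like cells 8 genes were at 4.54% to 6.62%, while GZMB was at 23.0% (18.2% without asthma replicate 10) and KLRG1 at 12.8%. In mast-like cells KLRG1 was at 449.8%, 190.2% and 0% in the 3 asthma libraries, and their mean of 213% became 95.1% without asthma replicate 8. KLRD1 there was at 36.7% (8.01% without asthma replicate 11), against 1.5% to 8.56% for the other 8.

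**Figure D3:**
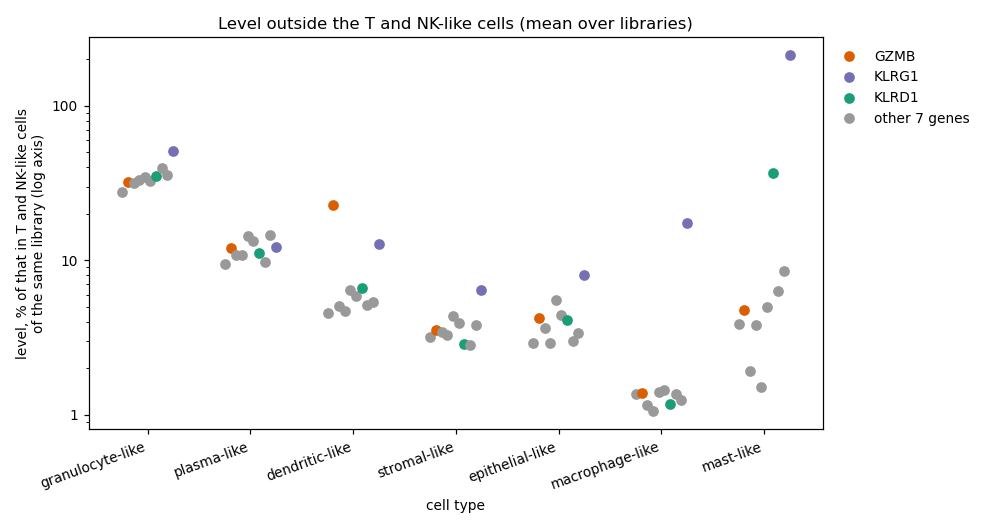
Level of each gene in 7 cell types other than T and NK-like cells, as a percent of its level in the T and NK-like cells of the same library (log axis, mean over libraries), with GZMB, KLRG1 and KLRD1 coloured and the other 7 genes grey. Most genes sit together within a cell type, and KLRG1 in macrophage-like and mast-like cells, GZMB in dendritic-like cells and KLRD1 in mast-like cells sit above the others, the KLRG1 means resting in part on asthma replicate 8 and that of KLRD1 on asthma replicate 11.

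KLRG1 was first described on mast cells, as the mast cell function-associated antigen. In the 108 mast-like cells, led by the mast cell genes CPA3, TPSD1, MS4A2 and KIT, 98 KLRG1 UMIs were counted in 52 cells, which is 166 CPM and no more than 5 UMIs in a cell. The level was 155 CPM in asthma replicate 8 and 200 CPM in asthma replicate 10, found in 23.3% and 23.8% of thinned cells. No KLRG1 UMI was counted in the 10 mast-like cells of asthma replicate 11, which allows up to 94.7 CPM (3 UMIs of 31694). Control libraries had 3, 7 and 5 mast-like cells with 0, 8 and 8 KLRG1 UMIs, too few for a level. KLRD1 in mast-like cells rested on asthma replicate 11, which held 20 of its 38 UMIs. Without cells marked as likely doublets the KLRG1 level was 177 CPM.

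Granzyme B is also known from plasmacytoid dendritic cells. Dendritic-like cells here, 754 cells led by CLEC9A and DNASE1L3, carried GZMB at 1786, 1460 and 879 CPM in the controls and 1566, 4273 and 1092 CPM in asthma replicates. They held 12763 GZMB UMIs in 365 cells, and 38 cells held 48.0% of them, with 285 UMIs in the highest cell. GNLY and NKG7 were at 103 and 143 CPM in the same cells. Leaving out marked doublets left GZMB at 1277 CPM of 1349 CPM and brought GNLY to 61.5 CPM and NKG7 to 95.04 CPM. Macrophage-like cells had KLRG1 at 6.10, 11.9 and 4.90 CPM in the controls and 21.4, 7.26 and 0.96 CPM in asthma replicates, highest in asthma replicate 8, where only 39.6% of KLRG1 UMIs lay in T and NK-like cells.

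Granulocyte-like cells had all 10 genes at 27.9% to 51.2% of the T and NK-like level, which rested on a mixed cluster. That cluster of 388 cells was led by the immunoglobulin genes JCHAIN and IGKC beside the granulocyte gene CSF3R, 55.9% of its cells were marked as likely doublets, and it held GZMB at 5282 CPM. The other granulocyte-like cluster (1676 cells, median 1008 UMIs) held GZMB at 145 CPM and KLRG1 at 1.13 CPM. Levels in granulocyte-like cells were therefore not read as expression by granulocytes.

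The question of the study, what A. suum asthma changes in each cell type of the lung, was asked of the 10 genes with counts summed per library. In T and NK-like cells none of the 10 passed the edgeR quasi-likelihood test (Benjamini-Hochberg adjusted p under 0.05 and absolute log2 fold change over 0.25), beside 0% of all 10438 genes tested. Of those genes 728 had an unadjusted p under 0.05, none of them one of the 10, and DESeq2 called 85. None of the 10 genes had groups that did not overlap, beside 12.4% of all genes (6.53% with asthma below control and 5.89% above). Their median log2 fold change was -0.18, with 3 higher and 7 lower in asthma, against 0.00 over all genes. GZMA, at 1355, 753 and 935 CPM in the controls and 606, 1063 and 426 CPM in asthma replicates, had the largest difference (log2 fold change -0.56, SE 0.36, edgeR adjusted p = 0.83).

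**Figure D4:**
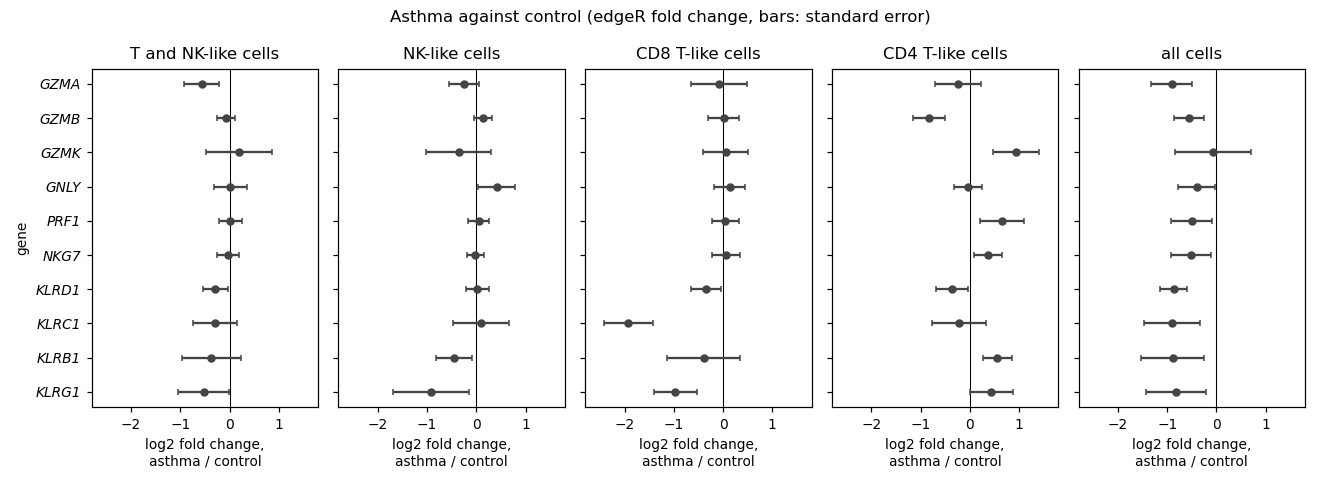
Log2 fold change of each gene, asthma over control, from the edgeR fit of counts summed per library (3 against 3), with bars of 1 standard error, in T and NK-like, NK-like, CD8 T-like and CD4 T-like cells and in all cells. No gene passed the adjusted test in any panel; KLRC1 in CD8 T-like cells (-1.92) lies farthest from 0, and in all cells 9 genes lie below 0 and GZMK close to it (-0.07, SE 0.77).

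In NK-like cells the 10 genes had a median log2 fold change of 0.00, with 5 higher and 5 lower, and none passed the test (0% of 7522 genes; 373 genes with an unadjusted p under 0.05, 6 called by DESeq2). The groups overlapped for all 10, beside 10.6% of all genes whose groups did not (5.48% with asthma below and 5.08% above). Levels of NKG7 were 3833 CPM ± 599 in the controls and 3820 CPM ± 268 in asthma, and those of PRF1 563 CPM ± 174 and 586 CPM ± 39. Only 3 genes had a difference larger than its standard error. KLRB1 was at 1078 CPM ± 538 in the controls and 786 CPM ± 265 in asthma (log2 fold change -0.45, SE 0.37, edgeR adjusted p = 0.98). GNLY was at 6992 CPM ± 1796 and 9254 CPM ± 5710 (0.42, SE 0.37), and without asthma replicate 10 its sign turned, to -0.30. KLRG1 (-0.91, SE 0.77) rested on few UMIs. NK-like cells came from 2 sub-clusters of 1642 and 1087 cells, and the larger held 728 of 923 cells in control replicate 1 but 79 of 347 in asthma replicate 11. Within a library the larger sub-cluster had the higher GZMK level in 6 of 6 libraries, with 1024 and 906 CPM in control replicate 1 and 86.1 and 48.9 CPM in asthma replicate 11. GZMA was also higher there in 5 of 6, but asthma replicate 11 had 845.5 CPM in the larger and 1217 CPM in the smaller. In both sub-clusters asthma replicate 11 had the lowest GZMA and GZMK levels of the 6 libraries.

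In CD8 T-like cells none of the 10 passed the test either (0% of 7813 genes; 279 with an unadjusted p under 0.05, 1 called by DESeq2), and the median log2 fold change was -0.04. GZMB was at 7619 CPM ± 1579 in the controls and 7975 CPM ± 3277 in asthma, and GZMK at 452 CPM ± 355 and 476 CPM ± 209. KLRC1 was the only gene of the 10 whose groups did not overlap, beside 9.05% of all genes, and every asthma library was below every control library, as for 4.7% of all genes (4.35% lay the other way). It stood at 21.4, 82.2 and 21.4 CPM in the controls and 19.9, 6.78 and 8.81 CPM in asthma replicates, from 5, 188 and 22 and from 62, 12 and 2 UMIs. The nearest values of the groups, 21.4 and 19.9 CPM, were almost equal. KLRC1 and KLRG1 were the 2 of the 10 genes with an unadjusted p under 0.05. The log2 fold change of KLRC1 was -1.92 (SE 0.49, edgeR adjusted p = 0.67). It depended on control replicate 2, without which it was -0.66 (SE 0.51), and it reached -2.802 without asthma replicate 8. With a mitochondrial maximum of 10% it was -1.02 and with cytotoxic genes among the clustering genes -1.28. KLRG1, at 206 CPM ± 64 and 117 CPM ± 74, had a log2 fold change of -0.97 (SE 0.44, edgeR adjusted p = 1.0), and asthma replicate 8 was the lowest at 32.3 CPM.

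Control replicate 2 was highest in KLRC1 and also in the summed level of NK marker genes among CD8 T-like cells, and the part of these genes in the result was not tested. The summed level of 6 NK marker genes (of 11 listed) in these cells was 197, 872 and 353 CPM in the controls and 395, 521 and 167 CPM in asthma replicates. After control replicate 2 the sum was highest in asthma replicate 10, where KLRC1 was lowest, and it was lowest in asthma replicate 11. TYROBP was the most abundant of them, with 744 CPM in control replicate 2, and NCAM1 was at 0 in 5 of 6 libraries. Not all of them were highest in control replicate 2. FCER1G was at 34.5 CPM there, against 38.5 and 65.1 CPM in control replicates 1 and 3 and 39.7 CPM in asthma replicate 11. SH2D1B was highest in asthma replicate 8 (3.84 CPM). Most CD8 T-like cells of control replicates 2 and 3 (443 of 532 and 291 of 325) and of asthma replicates 8 and 11 (722 of 977 and 57 of 89) fell in the larger of 2 sub-clusters, where KLRC1 was at 43.9 CPM, and most of asthma replicate 10 (375 of 588) and control replicate 1 (63 of 91) in the smaller, where it was at 9.26 CPM. Within the larger sub-cluster alone KLRC1 was at 40.3, 93.7 and 21.6 CPM in the controls and 24.6, 5.77 and 14.3 CPM in asthma replicates, and the groups overlapped. Within the smaller it was at 12.6, 19.6 and 18.9 CPM in the controls and 6.199, 7.427 and 0 CPM in asthma replicates. These levels rest on 2, 7 and 2 UMIs in the controls and 5, 8 and 0 UMIs in asthma replicates. The 0 of asthma replicate 11 is of 32 cells, too few to show that it lay below the controls. Thinned shares of CD8 T-like cells with KLRC1 were 2.50%, 11.2% and 4.56% in the controls and 2.35%, 1.12% and 1.61% in asthma replicates, beside 0.6135%, 2.08% and 1.35% and 0%, 1.09% and 2.86% in epithelial-like cells of the same libraries. The 0% of asthma replicate 8 is of 171 cells and allows up to 1.75%. The CD8 T-like share was thus close to or below the background of its own library in asthma replicates 10 and 11 and above it in the other 4 libraries, in control replicate 1 on the 5 UMIs given above.

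Whether a gene moved differently in NK-like and CD8 T-like cells was tested as an interaction, with the library as a block. KLRC1 passed, as did 0.0366% of the 8198 genes tested (3 genes). Its asthma effect was larger in NK-like than in CD8 T-like cells by 1.75 on the log2 scale (SE 0.29, edgeR adjusted p = 0.0097), with NK-like levels of 494 CPM ± 506 in the controls and 543 CPM ± 189 in asthma and CD8 T-like levels of 41.6 CPM ± 35.1 and 11.8 CPM ± 7.0. The ratio of NK-like to CD8 T-like cells was 5.98, 13.0 and 13.3 in the controls and 37.7, 55.4 and 57.4 in asthma replicates. The edgeR call was lost without control replicate 2 (1.85, adjusted p = 0.13), without cells marked as doublets (1.58, adjusted p = 0.18), with a mitochondrial maximum of 10% (0.87, adjusted p = 0.39) and with cytotoxic genes kept among the clustering genes (1.18, adjusted p = 1.0). For GZMK the difference was -0.81 (SE 0.37, edgeR adjusted p = 1.0), and the other 8 genes lay between -0.06 and 0.38.

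CD4 T-like cells carry little of these genes, and none passed the test (0% of 6321 genes; 464 with an unadjusted p under 0.05, 4 called by DESeq2). None of the 10 had groups that did not overlap, beside 13.0% of all genes (6.42% with asthma below and 6.58% above). GZMB stood at 428, 903 and 850 CPM in the controls and 416, 675 and 221 CPM in asthma replicates (log2 fold change -0.83, SE 0.32, edgeR adjusted p = 0.59). GZMK stood at 76.8, 21.8 and 46.6 CPM in the controls and 36.1, 186 and 91.6 CPM in asthma replicates, a difference of 0.95 (SE 0.47, edgeR adjusted p = 0.70). The groups overlapped for both granzymes. Over the alternatives the difference ran from -1.297 (without asthma replicate 10) to -0.016 (without marked doublets) for GZMB and from 0.31 (without asthma replicate 10) to 1.603 (without control replicate 1) for GZMK. KLRB1 was at 346 CPM ± 132 in the controls and 545 CPM ± 218 in asthma (0.55, SE 0.29, edgeR adjusted p = 0.73). CD4 T-like levels moved with the clustering, for GZMB from 582 CPM to 999 CPM at a doubled resolution and to 1662 CPM without marked doublets, so these values belong to this clustering.

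The other 5 groups of T and NK-like cells were compared after the values had been seen, and none of the 10 genes passed the test in them. In the IGFBP2 group (0% of 4636 genes called; 267 with an unadjusted p under 0.05, 3 called by DESeq2) the groups did not overlap for 2 of the 10, beside 11.4% of all genes (6.04% with asthma below and 5.33% above), and both were higher in asthma. KLRC1 stood there at 65.1, 140.5 and 53.8 CPM in the controls and 177.9, 212.3 and 150.6 CPM in asthma replicates (log2 fold change 1.06, SE 0.30, edgeR adjusted p = 0.66), the opposite direction to CD8 T-like cells, a difference that was not tested. GNLY stood at 696, 391 and 476 CPM and 958, 1971 and 1201 CPM (1.37, SE 0.28, edgeR adjusted p = 0.37) and was called by DESeq2 (adjusted p = 0.012).

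The IFI27 group was fitted without asthma replicate 11, which had 7 of its cells, so that only 2 asthma libraries entered (0.113% of 6218 genes called, 7 genes; 284 with an unadjusted p under 0.05, 3 called by DESeq2). The groups did not overlap for 3 of the 10, beside 19.7% of all genes (8.88% with asthma below and 10.9% above). GZMA was at 1092, 998 and 1215 CPM in the controls and 1671 and 1982 CPM in asthma (0.69, SE 0.19, edgeR adjusted p = 0.49). GNLY was at 2429, 3042 and 2351 CPM and 4229 and 4761 CPM (0.74, SE 0.17, edgeR adjusted p = 0.23). KLRG1 was lower, at 139.5, 96.6 and 246.6 CPM and 7.16 and 73.3 CPM (-2.04, SE 0.55, edgeR adjusted p = 0.44), with 6 UMIs in asthma replicate 8. With only 1 asthma library left, its log2 fold change was -1.14 without asthma replicate 8 and -4.5 without asthma replicate 10.

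In the ITM2C group the groups overlapped for all 10, beside 10.9% of 5318 genes whose groups did not (5.28% with asthma below and 5.66% above). They also did for all 10 in proliferating-like cells, beside 9.51% of 4901 genes (5.18% below and 4.33% above), and for the 4 of the 10 tested in Treg-like cells, beside 10.7% of 1366 genes (5.12% below and 5.56% above). In these 3 groups 0% of genes were called, with 314, 178 and 80 at an unadjusted p under 0.05 and 0 by DESeq2 in each. KLRC1 in the ITM2C group had a log2 fold change of -0.89 (SE 0.36, edgeR adjusted p = 0.79).

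Summed over all cells of a library, a sum in which fewer killer cells and less RNA per cell cannot be told apart, 9 of the 10 genes were lower in asthma in mean CPM, and the fit gave a median log2 fold change of -0.69 against -0.02 over all genes. GZMK was at 119.9 CPM ± 45.3 in the controls and 124.2 CPM ± 107 in asthma, with a fitted log2 fold change of -0.07 (SE 0.77) whose sign turned in 3 of 10 alternatives. None passed the test, as against 0.0839% of 14306 genes (12 genes, all higher; 1845 with an unadjusted p under 0.05, 647 called by DESeq2). Groups did not overlap for 2 of the 10, beside 19.3% of all genes (9.13% with asthma below control and 10.1% above). These were KLRD1 and GZMA, on the normalized scale of the fit. KLRD1 stood there at 138.7, 237 and 210.1 CPM in the controls and 78.3, 137.4 and 105.5 CPM in asthma replicates, and GZMA at 317.5, 247.9 and 279.5 CPM and 136, 243.8 and 69.5 CPM, so that the nearest values of the groups were almost equal for both. On the plain CPM scale the groups overlapped for both genes, with KLRD1 at 124 CPM in control replicate 1 and 138 CPM in asthma replicate 10. Their log2 fold changes were -0.87 (SE 0.27, edgeR adjusted p = 0.29) and -0.91 (SE 0.42, edgeR adjusted p = 0.43). T and NK-like cells made up 43.1%, 46.7% and 47.3% of all cells in the controls and 45.8%, 41.9% and 26.2% in asthma replicates (two-sided exact permutation test, p = 0.2, smallest possible 0.1; adjusted over 9 shares 0.60), and the part of that share in the sums was not tested.

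The make-up of the T and NK-like cells varied widely between animals of the same group. NK-like cells were 49.4%, 20.4% and 29.6% of them in the controls and 13.5%, 18.2% and 32.8% in asthma replicates (exact permutation p = 0.4), and CD8 T-like cells 4.87%, 35.6% and 17.6% and 51.6%, 30.4% and 8.42% (exact p = 0.6). Proliferating-like cells, 8.57% ± 6.69 in the controls and 1.69% ± 0.52 in asthma, and the IGFBP2 group, 10.1% ± 3.5 and 5.01% ± 2.53, did not overlap between groups and reached the smallest p that 3 against 3 allows, 0.1 (adjusted over 9 shares 0.45). The control mean of proliferating-like cells rested in part on control replicate 3 (16.1%, against 3.26% and 6.355%). Asthma minus control was -6.88 percentage points there and -3.12 without that library. The nearest values of the IGFBP2 group, 7.865% in control replicate 1 and 7.852% in asthma replicate 11, were almost equal. No share could pass 0.05 in this design.

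**Figure D5:**
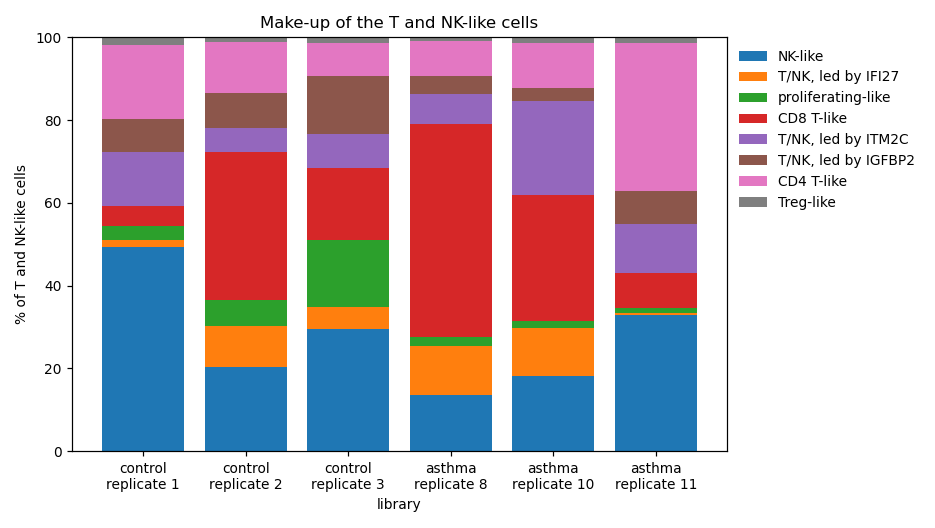
Share of each of 8 groups among the T and NK-like cells of every library (stacked bars, percent). NK-like cells range from 13.5% to 49.4% and CD8 T-like cells from 4.87% to 51.6% over the 6 libraries, with control replicate 1 and asthma replicate 11 both low in CD8 T-like cells.

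Asthma replicate 11 stood apart in several of these values. It had the fewest UMIs of the 10 genes, the lowest share of T and NK-like cells and the lowest GZMA and GZMK in NK-like cells. The summed level of 8 immediate-early and stress genes, which rise when tissue is handled, was 2764 CPM in its T and NK-like cells against 4921 to 6739 CPM in the other libraries. The part of tissue handling in its granzyme levels was not tested. Without asthma replicate 11 none of the 10 genes passed the test in any of the 5 comparisons of asthma with control.

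Other genes of the pathway were taken from lists, with up to 4 named per list by their level in T and NK-like cells, and none of their members passed the test in any of the 5 comparisons or in the interaction. Among other granule and death-ligand genes (13 of 15 listed genes were found), SRGN, the proteoglycan that packs granule contents, was at 1627 CPM ± 284 in NK-like and 1449 CPM ± 285 in CD8 T-like cells, and CST7, an inhibitor of granule cathepsins, at 1806 CPM ± 199 and 1743 CPM ± 219. CST7 fell to 242 CPM ± 61 in CD4 T-like cells, whereas SRGN did not, at 1216 CPM ± 175. The chaperone CALR (377 and 375 CPM) and RAB27A, which docks granules at the membrane (157 and 211 CPM), were also alike in both killer types. The list's median log2 fold change lay between -0.09 and 0.04 in the 6 comparisons.

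Of the other receptors and adaptors (13 of 15 found), HCST, the adaptor of the activating receptor NKG2D, was at 2111 CPM ± 263 in NK-like and 1822 CPM ± 381 in CD8 T-like cells. NCR3, an activating receptor, was at 320 CPM ± 111 and 150 CPM ± 71, TIGIT, an inhibitory one, at 94.8 CPM ± 33.5 and 120 CPM ± 41, and KLRK1, NKG2D itself, at 135 CPM ± 27 and 137 CPM ± 34. For the ligands of the receptors, HLA-E, which binds the KLRD1 and KLRC1 pair, was at 1833 CPM ± 404 in NK-like cells and 934 CPM in macrophage-like cells. CLEC2D, the ligand of the KLRB1 product, was at 753 CPM ± 116 in CD8 T-like and 306 CPM ± 71 in NK-like cells, and CDH1, the E-cadherin bound by the KLRG1 product, at 42.1 CPM in epithelial-like cells and 0.16 CPM in T and NK-like cells. CLEC2D was thus higher in CD8 T-like than in NK-like cells, the reverse of KLRB1.

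Of the secreted factors, CCL5 was at 6344 CPM ± 318 in NK-like and 3539 CPM ± 875 in CD8 T-like cells, IFNG at 611 CPM ± 110 and 733 CPM ± 236, and TNF at 14.3 CPM ± 8.5 and 29.99 CPM ± 17.5. Their 3 log2 fold changes had medians between -0.54 (all cells) and 0.25 (the interaction). Among the transcription factors ID2 was at 1849 and 1739 CPM in NK-like and CD8 T-like cells, HOPX at 1561 and 918 CPM, RUNX3 at 244 and 205 CPM and ZEB2 at 239 and 282 CPM. The 8 immediate-early and stress genes were lower in asthma in 8 of 8 cases in CD8 T-like cells (median log2 fold change -0.51) and in CD4 T-like cells (-0.49), though none passed the test. Their summed level was 6704, 5425 and 6134 CPM in the controls and 4469, 5907 and 2459 CPM in asthma replicates in CD8 T-like cells, and 7143, 6278 and 8942 CPM and 6374, 7812 and 3564 CPM in CD4 T-like cells, lowest in asthma replicate 11 in both. Without that library, a check chosen after seeing the data, 6 of 8 were lower in CD8 T-like cells (median -0.34) and 5 of 8 in CD4 T-like cells (-0.21). In NK-like cells 7 of 8 were lower (-0.29), and in T and NK-like cells together 6 of 8 (-0.24). Without asthma replicate 11 only 3 of 8 were lower in each of these (medians 0.03 and 0.04).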

How the data were processed

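Gene-by-cell matrices of UMI counts, 1 per monkey, were made by the authors with Cell Ranger from 10x 3′ libraries aligned to the macFas6 genome and deposited unnormalized. The submitters' processing notes name version 2.1.1, the file headers 4.0.0 and the study's methods a further version, differences that could move low counts. Barcodes were retained with 500 to 5000 genes, 500 UMIs or more and a mitochondrial share of 25% or less. Each cell was scaled to 10000, and 2000 variable genes were taken, without the 10 genes and 29 related ones. They gave 10 principal components, 20 neighbours and Leiden clusters at resolution 0.8 (scanpy 1.11.5, leidenalg 0.10.2), then again within T and NK-like cells. Clusters were named from marker lists, with thresholds set after the clusters were seen. Scrublet's own threshold marked 1 to 3 cells per library and so did not work, and its 1141 highest scores (0.8% per 1000 cells) were marked as likely doublets and kept in the main results. Libraries shared few barcodes, between 5 and 13 per pair.

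Counts were summed per library and cell type (at least 10 cells) and tested with edgeR 4.0.16 (quasi-likelihood, TMM, filterByExpr, Benjamini-Hochberg over all genes tested), with calls made below an adjusted p of 0.05 where the log2 fold change was beyond 0.25 in size. The standard error is the log2 fold change divided by the root of F. Each library was 1 monkey, so p-values measure the spread between animals. The study's own test compared cells, which are not replicates, and was not used. DESeq2 1.42.0, no filter on low counts, other clusterings and the removal of doublets or of single libraries were the alternatives. The fits were tested on simulated counts. The remaining 5 T and NK-like groups were compared after the data were seen. Subtype shares were compared by an exact permutation test over 20 assignments. For shares of cells with a UMI, cells were thinned to 2000 UMIs (1000 as the alternative), and limits cover counting error only. Like-patterned genes were the 3 with the highest Pearson's r of log2(CPM + 10) among genes with at least 50 CPM in some group. All 10 genes were named in all comparisons, and the genes and lists were chosen with earlier results of these data known. Genes lacking from the lists' symbols, such as GZMH and KLRC2, were not analysed here. All 10 symbols were found in RefSeq's table of another build, T2T-MFA8v1.1, so no coordinates are given.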

Additional observations from a re-analysis of the deposited data

Results flagged for a closer look

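The asthma effect differed between NK-like and CD8 T-like cells by the interaction test for 3 genes, of which KLRC1 belongs to the 10 genes and CD7 and TNFRSF18 were named after their values were seen. For KLRC1 the difference was 1.75 on the log2 scale, as described above. For CD7, a T and NK cell surface protein, it was 1.52 (SE 0.25, edgeR adjusted p = 0.0097), with 1106, 1636 and 1364 CPM in NK-like cells of control and 821, 1953 and 1305 CPM of asthma replicates, and 77.0, 142.5 and 208 CPM against 24.97, 85.3 and 48.5 CPM in CD8 T-like cells. For TNFRSF18, the costimulatory receptor GITR, it was 3.56 (SE 0.65, edgeR adjusted p = 0.029), on few UMIs, with at most 31.5 CPM in NK-like and 40.7 CPM in CD8 T-like cells of any library.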

How the results depend on the processing

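With 3 libraries per group, differences could be missed, and a missed threshold does not show that the groups were alike. The spread between animals in NK-like cells reached 17.7 times for GZMK (56.6 to 1000 CPM) and was far smaller for NKG7 (3144 to 4236 CPM). No detection limit is given for any gene. No paired analysis was possible because control and asthma libraries share no replicate number. In the 5 planned comparisons and the interaction, where a log2 fold change of the 10 genes exceeded its standard error, 289 recomputed values kept direction and side of the threshold, 4 turned in direction, 4 passed the threshold anew and 4 no longer passed it. Of the 60 fold changes fitted there, 33 did not exceed their standard error, and all 33 changed sign under some alternative. The causes of the changes below were not tested.

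Genes called numbered 85 by DESeq2, 84 with no filter on low counts, 1 with a mitochondrial maximum of 10%, 1 without doublets and 0 to 3 without single libraries in T and NK-like cells. In CD8 T-like cells these numbers were 1, 54, 6, 2 and 0 to 2. For NK-like cells DESeq2 gave 6, no filter 146 and leaving out libraries 0 to 4, for CD4 T-like cells 4, 114 and 0 to 6, and for all cells 647, 45 and 0 to 11, with 0 without control replicate 1 or asthma replicate 10. The interaction gave 15 with no filter, 1 with cytotoxic genes among the clustering genes and 3 to 8 without single libraries. Without the filter 1 of the 10 genes was called in CD8 T-like cells (KLRC1), 2 in CD4 T-like cells (GZMB and GZMK) and 2 in the interaction (KLRC1 and GZMK). In the interaction 0 were called with cytotoxic genes among the clustering genes, with the mitochondrial maximum or without doublets, and 0 to 1 without single libraries. In the 5 groups compared after the data were seen, 36 recomputed fold changes of the genes whose groups did not overlap kept direction and side of the threshold and 6 passed it anew. Leaving out the filter called KLRC1 and GNLY (IGFBP2 group), GNLY and KLRG1 (IFI27 group), KLRC1 (ITM2C group) and KLRB1 (proliferating-like cells), and leaving out asthma replicate 10, with 1 asthma library left and assumed to vary like the others, called KLRG1 (-4.5) and KLRB1 (-4.753) in the IFI27 group. In the interaction KLRC1 was 1.18, 0.87 and 1.58 under those settings and 1.602 to 2.19 without single libraries.

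GNLY in NK-like cells ran from -0.30 to 0.68 without single libraries. In CD4 T-like cells KLRD1 turned to 0.76 with the mitochondrial maximum and 0.34 without doublets, and NKG7 to -0.065 at the doubled resolution. The share of CD4 T-like cells, asthma minus control, ran from -3.05 to 10.6 percentage points without single libraries, and that of Treg-like cells from -0.30 to 0.0343. The Treg-like difference, -0.17 in the main result, moved further with the clustering. It was -3.675 with cytotoxic genes among the clustering genes and -0.84 at the doubled resolution. CD4 T-like levels at the doubled resolution were 999 (GZMB), 300.5 (GZMK), 228 (GNLY), 143 (PRF1), 639 (NKG7), 111 (KLRD1), 49.3 (KLRC1) and 117 CPM (KLRG1), and without doublets 87.6 (GZMA), 1662 (GZMB), 539 (GZMK), 274 (GNLY), 838 (NKG7), 152 (KLRD1), 39.4 (KLRC1) and 59.8 CPM (KLRG1). As means over libraries, shares of NK-like cells at 1000 and at 2000 UMIs were 99.7% and 100% (GZMB), 95.9% and 98.9% (GNLY), 41.3% and 62.5% (PRF1), 95.03% and 99.5% (NKG7), 59.9% and 82.2% (KLRD1) and 50.3% and 70.6% (KLRB1), those of CD8 T-like cells 94.4% and 98.2% (GZMB), 36.7% and 56.5% (GNLY), 32.7% and 54.7% (PRF1), 87.8% and 96.6% (NKG7), 34.8% and 53.7% (KLRD1) and 13.5% and 25.4% (KLRG1), and those of CD4 T-like cells 4.93% and 9.16% (GNLY) and 2.17% and 5.52% (KLRG1).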

Other observations

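CMA1, which encodes mast cell chymase and had the pattern most like GZMB within T and NK-like groups, averaged 164 CPM in NK-like cells, 113.5 CPM in the IFI27 group and 77.3 CPM in CD8 T-like cells, beside 3.89 CPM in CD4 T-like cells. In mast-like cells it averaged 112 CPM ± 172 over 3 libraries, a spread larger than the mean, so its level there is uncertain.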
